A study of Mus musculus with 60 samples.

Results

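The genes described here are the regulators of G1, the phase of the cell cycle before DNA replication: 3 D-type cyclins (Ccnd1, Ccnd2, Ccnd3), their kinases Cdk4 and Cdk6, the CIP/KIP inhibitors Cdkn1a (p21) and Cdkn1b (p27), and the INK4 inhibitors Cdkn2a, Cdkn2b and Cdkn2c. They were chosen by symbol from the RNA count table, and all 10 were found among its 23127 genes. D-type cyclins bind Cdk4 or Cdk6, and the complex phosphorylates the retinoblastoma protein, which releases E2F factors and lets the cell enter S phase. CIP/KIP proteins bind cyclin and kinase together, and INK4 proteins bind Cdk4 and Cdk6 themselves. EZH2 is the catalytic subunit of PRC2, the complex that methylates histone H3 on lysine 27 (H3K27me3), and the locus shared by Cdkn2a and Cdkn2b is a textbook target of PRC2 silencing in cultured cells. The early mouse embryo divides very fast through gastrulation, with short G1 phases.

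The RNA libraries came from embryos of the ICR mouse strain, cultured as explants in N2B27 medium for 48 hours. The treated arm received EPZ005687, a small-molecule inhibitor of EZH2, and the control arm the same volume of its solvent, DMSO. Poly(A) RNA was sequenced from an anterior embryonic (A), a posterior embryonic (P) and an extraembryonic (ExE) part in each arm, 1 library per region and arm, 6 in all. The labels give neither the stage of these embryos nor how many were pooled, and both arms share strain, medium and culture time. The question of the treatment comparison is how the RNA of each part differs when EZH2 is inhibited. A further 54 samples of the series, on H3K27me3 and DNA methylation in gastrula-stage embryos, were not analysed here.

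Library totals ran from 1000342 counts (A, EPZ005687) to 5812535 counts (ExE, DMSO). Levels are given in CPM, counts per 1e+06 counts of the library. Where a gene has 0 counts its true level may still reach that of 3, or 3 CPM in the shallowest library and 0.516 CPM in the deepest. The regions stood in for repeats, so the p-values rest on how far these 6 libraries spread. That spread was estimated partly from each gene and partly from all tested genes together. The arms differed in more than the inhibitor. The code in the library names, of unstated meaning, is shared within an arm and differs between arms. Xist ran from 134 to 258 CPM in the DMSO libraries and from 6.9 to 40.1 CPM in the EPZ005687 libraries, while the Y-linked Eif2s3y ran from 0 to 0.172 CPM and from 57 to 225 CPM. Ribosomal protein genes held 2.35% to 3.32% of counts under DMSO and 4.78% to 13.9% under EPZ005687. The ribosomal RNA precursor Rn45s held 0.0538% to 0.109% and 0.521% to 6.54%. These differences and the treatment cannot be told apart in any comparison of arms. Marker genes also showed uneven tissue make-up. The 7 visceral endoderm markers summed to 65.2 CPM in the A library under DMSO and 3130 CPM in the A library under EPZ005687, against 7330 and 7210 CPM in P. Afp alone held 5.06 and 2900 CPM of the A sums. All 7 were higher in the treated A library, but some by little, such as Cubn at 44.9 and 58 CPM. The 7 neural and anterior ectoderm markers summed to 2250 and 498 CPM in A, with none at 0. Sfrp1 alone held 1590 and 218 CPM of these sums. Sox1 (12.9 and 21 CPM) and Sox2 (30.9 and 34 CPM) were higher in the treated A library, and the rest were lower. The 7 blood and endothelium markers summed to 8360 CPM in P and 413 CPM in ExE under DMSO, against 1350 and 34700 CPM under EPZ005687. The ExE libraries carried 22600 and 13600 CPM of visceral endoderm markers, and their 9 trophoblast markers summed to 13.1 and 25.1 CPM. Of these 9, 4 were at 0 under DMSO and 2 under EPZ005687 (Cdx2 in both), while Gata3 was at 8.95 and 4.01 CPM. The same 9 summed to 34.8 and 38.4 CPM in A and P under DMSO and 15 and 50.2 CPM under EPZ005687. In whole tissue, fewer cells of a type and less RNA per cell cannot be told apart.

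Under EPZ005687 the 10 genes did not move together. Ccnd1 fell 7.38-fold and passed the test, Cdkn1b was 9.37-fold lower in the fit and did not pass it, and the other 5 tested genes lay between −0.06 and 1.55 on the log2 scale with SEs from 0.487 to 1.54. Of the 7 tested genes, 1 was called lower and 0 higher at an adjusted p under 0.05 (edgeR quasi-likelihood test, Benjamini-Hochberg adjustment). Over all 13744 tested genes, 1.48% were called lower and 0.0509% higher. The members' median was 0.022 on the log2 scale, beside 0.197 for all tested genes. Cdk6, Cdkn2a and Cdkn2c were below the filter of 10 counts in 2 libraries and were not tested.

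**Figure D1:**
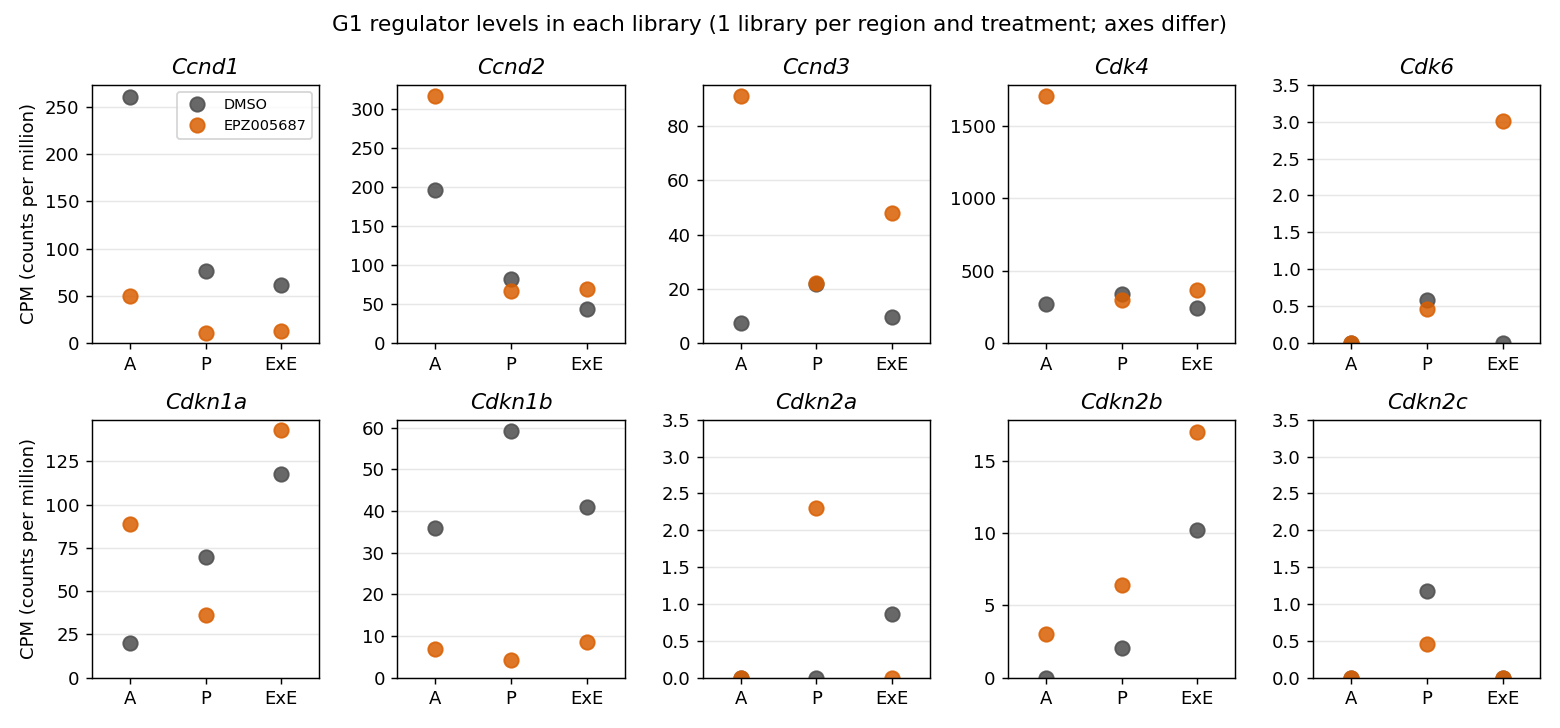
CPM (vertical axis, starting at 0, with a scale of its own in each panel) of the 10 G1 regulators in the A, P and ExE libraries, grey for DMSO and orange for EPZ005687, each point being 1 library. Ccnd1 and Cdkn1b sit lower under EPZ005687 in every region, while Cdk6, Cdkn2a and Cdkn2c never pass 3.01 CPM.

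Ccnd1, the D-type cyclin most closely tied to growth factor signals, lies on chromosome 7 (144929931 to 144939831, RefSeq, GRCm38.p6). Its DMSO levels were 261 CPM in A, 75.9 CPM in P and 61.9 CPM in ExE, against 50, 11 and 13 CPM under EPZ005687. All 3 treated libraries lay below all 3 controls, with means of 133 ± 111 CPM under DMSO and 24.7 ± 21.9 CPM under EPZ005687 (SD, n = 3). The SDs span the regions, and A held several times the level of P and ExE in both arms. The log2 fold change was −2.88 (SE 0.544, adjusted p = 0.0195). Taken region by region, the log2 ratio on CPM scaled by TMM (trimmed mean of M-values, a correction for RNA composition) was −2.76 in A (95% interval −3.26 to −2.38), −2.85 in P (−3.60 to −2.33) and −2.87 in ExE (−3.57 to −2.36). These intervals, here and below, cover counting error only, and those of the 3 regions overlapped almost fully. The adjusted p was above 0.05 when any of 4 libraries was left out: 0.0657 without A under DMSO, 0.0587 without ExE under DMSO, 0.0528 without A under EPZ005687 and 0.111 without ExE under EPZ005687. It was also 0.0743 with library totals in place of TMM, and the log2 fold change stayed between −2.92 and −2.47 over 13 alternatives.

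Ccnd2, another D-type cyclin with the same kinase partners, lies on chromosome 6 (127125162 to 127152188). It measured 196, 81.7 and 44 CPM in A, P and ExE under DMSO and 317, 66.7 and 69.7 CPM under EPZ005687. The arms overlapped, and the log2 fold change was −0.06 (SE 0.487, adjusted p = 0.985). With this SE a change of 2-fold would not have been detectable. By region the ratio was 0.27 in A (0.05 to 0.50), −0.44 in P (−0.74 to −0.15) and −0.02 in ExE (−0.33 to 0.28).

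Ccnd3, the third D-type cyclin, lies on chromosome 17 (47505051 to 47599689). It measured 7.3, 21.7 and 9.63 CPM under DMSO and 91, 22.1 and 48.1 CPM under EPZ005687. Every treated library lay above every control in CPM (53.7 ± 34.8 CPM under EPZ005687 and 12.9 ± 7.72 CPM under DMSO, SD, n = 3), but the closest pair, the 2 P libraries, lay at 22.1 and 21.7 CPM, and the arms overlapped after TMM scaling. The log2 fold change was 1.55 (SE 0.852, adjusted p = 0.69). The region ratios differed widely: 3.01 in A (2.38 to 4.18), −0.12 in P (−0.68 to 0.42) and 1.59 in ExE (1.15 to 2.14). The A ratio rests on 13 counts in the DMSO library.

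Of the 7 tested members, Ccnd1 and Cdkn1b were lower in CPM with no overlap of the arms and Ccnd3 was higher with none. Among all tested genes 4.89% were lower and 15.9% higher with no overlap of 3 and 3 libraries.

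**Figure D2:**
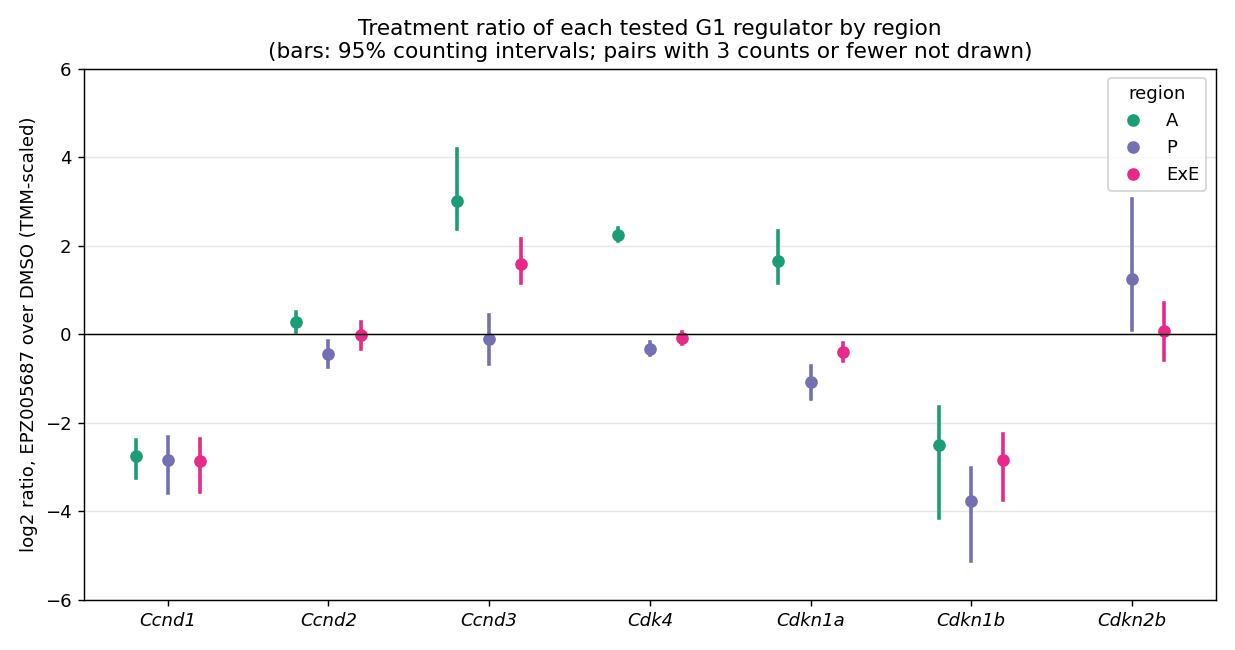
Log2 ratio of EPZ005687 over DMSO (vertical axis, TMM-scaled CPM) for the 7 tested G1 regulators, coloured by region, with 95% counting intervals as bars; Cdkn2b in A, at 0 and 3 counts, is not drawn. The 3 regions coincide for Ccnd1, from −2.87 to −2.76, and spread from −0.33 to 2.24 for Cdk4 and from −1.07 to 1.66 for Cdkn1a.

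The make-up of the D-type cyclin counts differed between the arms in all 3 regions. Shares within a library do not depend on scaling between libraries. They are compared across libraries here, not between genes, because counts were not corrected for transcript length. Ccnd1 held 56.2% of the D-type cyclin counts in A under DMSO (95% exact Clopper-Pearson interval 52.8% to 59.6%), 42.3% in P (38.4% to 46.3%) and 53.6% in ExE (49.7% to 57.4%). Under EPZ005687 it held 10.9% (8.21% to 14.1%), 11.1% (7.22% to 16%) and 9.96% (6.61% to 14.3%). The mean share was 50.7% ± 7.39 under DMSO and 10.7% ± 0.609 under EPZ005687 (SD, n = 3, two-sided exact permutation p = 0.1, the smallest that 3 against 3 allows). This permutation treated the 3 regions as interchangeable. The share also partly restates the lower Ccnd1 level, so the p adds no separate support. The arms did not overlap, and the treated libraries lay close together although their tissues and depths differed. The 3 shares sum to 100%, so a smaller share of Ccnd1 leaves more for the others: Ccnd2 took 42% ± 3.76 under DMSO and 63.1% ± 8.57 under EPZ005687, and Ccnd3 took 7.33% ± 5.34 and 26.3% ± 9.19. The summed level of the 3 cyclins depended on the scaling. In CPM it was 465, 179 and 116 in A, P and ExE under DMSO and 458, 99.8 and 131 under EPZ005687. After TMM scaling it was 487, 204 and 149 under DMSO and 359, 103 and 105 under EPZ005687, so that ExE turned from higher to lower.

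**Figure D3:**
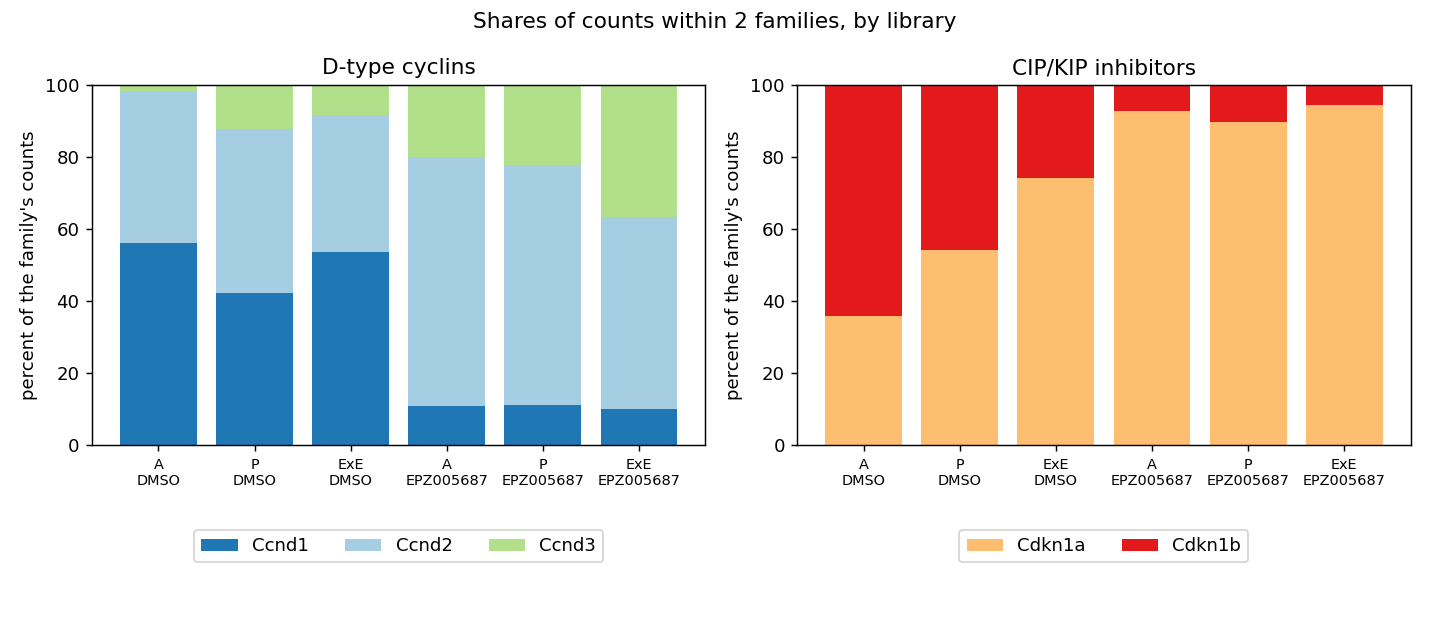
Share of counts (percent, stacked to 100) within the D-type cyclins (left) and within the CIP/KIP pair (right), 1 bar per library, DMSO first and EPZ005687 last. Ccnd1 holds 42.3% to 56.2% of the D-type cyclin counts under DMSO and 9.96% to 11.1% under EPZ005687, and Cdkn1b 25.9% to 64% and 5.61% to 10.2% of the CIP/KIP counts.

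Cdk4, the G1 kinase partner of the D-type cyclins, lies on chromosome 10 (127063535 to 127067288). It measured 270, 335 and 239 CPM in A, P and ExE under DMSO and 1710, 296 and 363 CPM under EPZ005687. The A library under EPZ005687 stood far above the other 5, which ran from 239 to 363 CPM. The log2 fold change was 0.57 (SE 0.636, adjusted p = 0.885), and it turned to −0.18 without A under DMSO and −0.20 without A under EPZ005687. The ratio was 2.24 in A (2.10 to 2.39), −0.33 in P (−0.47 to −0.19) and −0.08 in ExE (−0.21 to 0.05). Visceral endoderm markers also differed between the A libraries (65.2 and 3130 CPM, of which Afp held 5.06 and 2900 CPM). The part of tissue make-up in the Cdk4 value was not tested. The RefSeq promoter window of Cdk4 is printed for its 4 copies of CACGTG (in capitals), the E-box that MYC proteins can bind. It spans chr10:127063285-127063584 on the plus strand, 250 bases before to 50 after the start.
Cdk4: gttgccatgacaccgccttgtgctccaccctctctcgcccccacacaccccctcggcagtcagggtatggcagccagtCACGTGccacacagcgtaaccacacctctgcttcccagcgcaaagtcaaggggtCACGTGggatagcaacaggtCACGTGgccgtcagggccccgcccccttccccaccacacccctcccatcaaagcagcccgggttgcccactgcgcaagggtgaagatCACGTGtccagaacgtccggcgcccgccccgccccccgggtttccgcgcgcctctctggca
The copies start at −172, −118, −98 and −11 from the gene's start. CACGTG was found in 7.15% of 32851 mouse promoter windows of 300 bases. The window also holds 3 GGGCGG boxes on the minus strand, a motif in 35.7% of windows. A match of letters is a description and not a bound site.

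Cdk6, the other kinase of this step, was nearly silent. Under DMSO it had 0 counts in A, 2 in P and 0 in ExE, and under EPZ005687 it had 0, 1 and 6. The highest value was 3.01 CPM, in ExE under EPZ005687, and the 0 in A under EPZ005687 allows up to 3 CPM.

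Cdkn1b, the CIP/KIP inhibitor p27 that holds resting cells out of the cycle, lies on chromosome 6 (134920401 to 134925525). It measured 35.9, 59.2 and 41.1 CPM under DMSO and 7, 4.14 and 8.52 CPM under EPZ005687. The arms were far apart, at 45.4 ± 12.2 CPM under DMSO and 6.55 ± 2.22 CPM under EPZ005687 (SD, n = 3), and the highest treated library lay below every control. The treated values rest on 7, 9 and 17 counts. The log2 fold change was −3.23 (SE 0.766), with an unadjusted p of 0.00126 and an adjusted p of 0.0702 by edgeR, which does not pass the threshold. It passed in DESeq2 (adjusted p = 0.002) and with no filter on low counts (0.0184), and the adjusted p reached 0.521 in the least favourable of 13 alternatives. By region the ratio was −2.51 in A (−4.15 to −1.66), −3.76 in P (−5.14 to −3.03) and −2.86 in ExE (−3.76 to −2.25). Its promoter window is printed because this inhibitor had the largest difference of the family. It spans chr6:134920151-134920450 on the plus strand, with CCAAT boxes (ATTGG on the other strand) and a GGGCGG box in capitals.
Cdkn1b: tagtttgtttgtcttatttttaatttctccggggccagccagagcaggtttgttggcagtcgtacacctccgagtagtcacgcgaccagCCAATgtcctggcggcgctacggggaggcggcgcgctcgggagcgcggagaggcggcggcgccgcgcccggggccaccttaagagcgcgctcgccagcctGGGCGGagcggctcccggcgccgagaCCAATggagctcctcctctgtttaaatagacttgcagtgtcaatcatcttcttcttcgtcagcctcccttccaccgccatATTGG
It has 3 CCAAT boxes, starting at −161, −35 and 46 from the gene's start, the last on the minus strand. CCAAT was found in 37.4% of windows. With 62% G and C and 30 CpG sites, it is a CpG-rich start, where the median window had 52.7% and 7 sites.

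Cdkn1a, the CIP/KIP inhibitor p21 and a classic p53 target, lies on chromosome 17 (29090979 to 29100722). It measured 20.2, 69.7 and 118 CPM in A, P and ExE under DMSO and 89, 36.4 and 143 CPM under EPZ005687. The arms overlapped, and the log2 fold change was 0.02 (SE 0.645, adjusted p = 0.998). The region ratios pointed different ways: 1.66 in A (1.15 to 2.32), −1.07 in P (−1.48 to −0.72) and −0.40 in ExE (−0.61 to −0.20). The ExE ratio was 0.28 with library totals in place of TMM. Its upstream promoter window, chr17:29090729-29091028 on the plus strand, is printed for its p53 half-sites, in capitals.
Cdkn1a: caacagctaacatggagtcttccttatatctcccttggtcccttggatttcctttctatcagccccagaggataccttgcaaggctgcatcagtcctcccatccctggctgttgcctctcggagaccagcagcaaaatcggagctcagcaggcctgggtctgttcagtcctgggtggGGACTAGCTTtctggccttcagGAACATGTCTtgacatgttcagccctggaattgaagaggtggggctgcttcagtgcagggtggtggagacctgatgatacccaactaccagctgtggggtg
The half-sites start at −73 and −51. The p53 half-site was found in 8.36% of windows. This window has only 2 CpG sites, whereas the window of a second start (chr17:29093519-29093818, not printed) has 23 and holds 2 GGGCGG boxes.

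The balance of the CIP/KIP pair was looked at after its values were seen. Cdkn1b held 64%, 45.9% and 25.9% of the pair's counts in A, P and ExE under DMSO and 7.29%, 10.2% and 5.61% under EPZ005687. The means were 45.3% ± 19.1 and 7.7% ± 2.32 (SD, n = 3), a description only, since it restates the lower Cdkn1b level.

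The INK4 genes among the members lie on chromosome 4, where Cdkn2a (89274473 to 89294619) and Cdkn2b (89306289 to 89311032) are neighbours and Cdkn2c (109660876 to 109666756) is distant. Cdkn2a encodes p16INK4a and, from another frame, ARF, which holds back the p53 inhibitor MDM2. It had 5 counts in ExE under DMSO (0.86 CPM), 5 counts in P under EPZ005687 (2.3 CPM) and 0 counts in the other 4 libraries. Cdkn2c had 4 counts in P under DMSO, 1 count in P under EPZ005687 and 0 elsewhere. For Cdkn2a the counting interval of the treatment log2 ratio in P, from 0 and 5 counts, began at 0.38 and had no upper end, while that in ExE, from 5 and 0 counts, reached up to 0.98. A count of 0 in the treated A library still allows 3 CPM. Cdkn2b, which encodes p15INK4b, measured 0, 2.05 and 10.2 CPM in A, P and ExE under DMSO and 3, 6.44 and 17 CPM under EPZ005687. Levels were highest in ExE and lowest in A in both arms, but the order of P and A lay within counting error. The interval of the P versus A log2 ratio began at −0.29 with no upper end under DMSO. Under EPZ005687 it ran from −0.35 to 3.93. The log2 fold change with treatment was 1.45 (SE 1.54, adjusted p = 0.877), the ratio in P was 1.25 (0.10 to 3.05, from 7 and 14 counts), and the ratio in ExE was 0.06 (−0.59 to 0.70, from 59 and 34 counts). In A the counts were 0 and 3, which gives no fold. The promoter window of Cdkn2b has a TGACGTCA element at −46, found in 1.79% of windows.

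Read region by region, changes of 2-fold or more in log2 ratio were common among all genes, and the members' counts stand beside that background. In A, 2 of 7 members were lower and 4 higher (Cdkn2b, at 0 and 3 counts, among the 4), beside 21.8% and 31.5% of all tested genes. In P, 3 were lower and 1 higher, beside 26.7% and 26.1%. In ExE, 2 were lower and 1 higher, beside 22.0% and 29.4%. Only Ccnd1 and Cdkn1b were 2-fold or more lower in all 3 regions, and none of the 7 was 2-fold higher in all 3. The share of all tested genes that met this in all 3 regions was not taken, so these counts have no background beside them. The treatment effect in ExE minus that in A and P was tested directly. The differences ran from −2.25 (Cdkn2b) to 0.44 (Cdkn1b) on the log2 scale, 0 of 7 were called by edgeR and 0 had an unadjusted p under 0.05, and 0.0509% of all tested genes were called. DESeq2 and limma-voom also called 0 of the 7. For Ccnd1 this difference was −0.07 (SE 1.39, adjusted p = 1), so a region-specific effect of 2-fold could not be detected.

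Between regions, no member passed the test. When ExE was set against the average of A and P, 0% of the 13744 genes were called by edgeR, 883 had an unadjusted p under 0.05, DESeq2 called 102 lower and 140 higher and limma-voom 19 and 16. For P versus A, 0% were called, 744 had an unadjusted p under 0.05, DESeq2 called 29 lower and 151 higher and limma-voom 4 and 19. Of the 7 members, 2 had an unadjusted p under 0.05 in each contrast, and DESeq2 and limma-voom called 0. In ExE these were Ccnd2, at a log2 fold change of −1.26 (SE 0.545, adjusted p = 0.735), and Cdkn1a, at 1.38 (SE 0.626, adjusted p = 0.768). In P versus A they were Ccnd1, at −1.72 (SE 0.641, adjusted p = 0.757), and Ccnd2, at −1.50 (SE 0.608, adjusted p = 0.84). These 4 values did not pass the adjusted threshold.

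In both arms A had the highest level of Ccnd1 and Ccnd2, and ExE the highest of Cdkn1a and Cdkn2b, while the order of P and A turned for Cdk4, Ccnd3 and Cdkn1a. Ccnd1 was lower in P than in A by a log2 ratio of −1.66 under DMSO (−1.89 to −1.44) and −1.69 under EPZ005687 (−2.56 to −1.06). ExE and P did not differ beyond counting error in either arm, at −0.11 (−0.35 to 0.12) and −0.11 (−0.97 to 0.75). Ccnd2 was also lower outside A, at log2 ratios of −1.14 and −1.84 for P versus A and −1.84 and −2.13 for ExE versus A. Cdk4 was higher in P than in A under DMSO, at 0.43 (0.27 to 0.59), and lower under EPZ005687, at −2.14 (−2.28 to −2.01). Ccnd3 turned the same way, from 1.59 (0.83 to 2.66) to −1.61 (−2.19 to −1.13). For Cdkn1a, P versus A went from 1.86 (1.39 to 2.45) to −0.88 (−1.36 to −0.45), and the ExE to A ratio was 2.81 under DMSO (2.36 to 3.37) and 0.71 under EPZ005687 (0.37 to 1.08). Cdkn1b went from 0.82 (0.43 to 1.27) to −0.30 for P versus A, but its treated interval, −1.96 to 1.29, spans 0. Cdkn2b was higher in ExE than in P, by 2.25 (1.36 to 3.86) and 0.96 (0.11 to 2.06). In the A libraries, neural markers summed to 2250 CPM under DMSO and 498 CPM under EPZ005687, with Sfrp1 at 1590 and 218 CPM. The part of tissue make-up in these ratios was not tested.

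The rest of the pathway held 87 tested genes in 9 lists, and edgeR called 0 of them in the treatment contrast, where the shares over all genes were 1.48% lower and 0.0509% higher. At an unadjusted p under 0.05 in edgeR there were 6 of the 87, beside 1220 of all 13744 tested genes. DESeq2 and limma-voom each called the same 2 lower, Top2a and Btg2. Over all 13744 genes they called 428 and 365 lower. Of the genes that act with the members, 0 of 3 other CDK inhibitors, 0 of 11 cyclins E, A and B with their kinases, 0 of 3 parts of the CDK-activating kinase and 0 of 13 retinoblastoma and E2F genes passed edgeR's test in either direction. Their median log2 fold changes were 0.61, −0.14, 0.18 and −0.18. Also 0 of 18 E2F target and replication genes passed, 0 of 9 ubiquitin ligase parts, 0 of 14 tested p53 genes (of 15), 0 of 10 MYC family genes and 0 of 6 PRC2 core genes, with medians of 0.04, 0.02, −0.25, −0.15 and −0.46. The medians lie beside 0.197 for all tested genes.

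**Figure D4:**
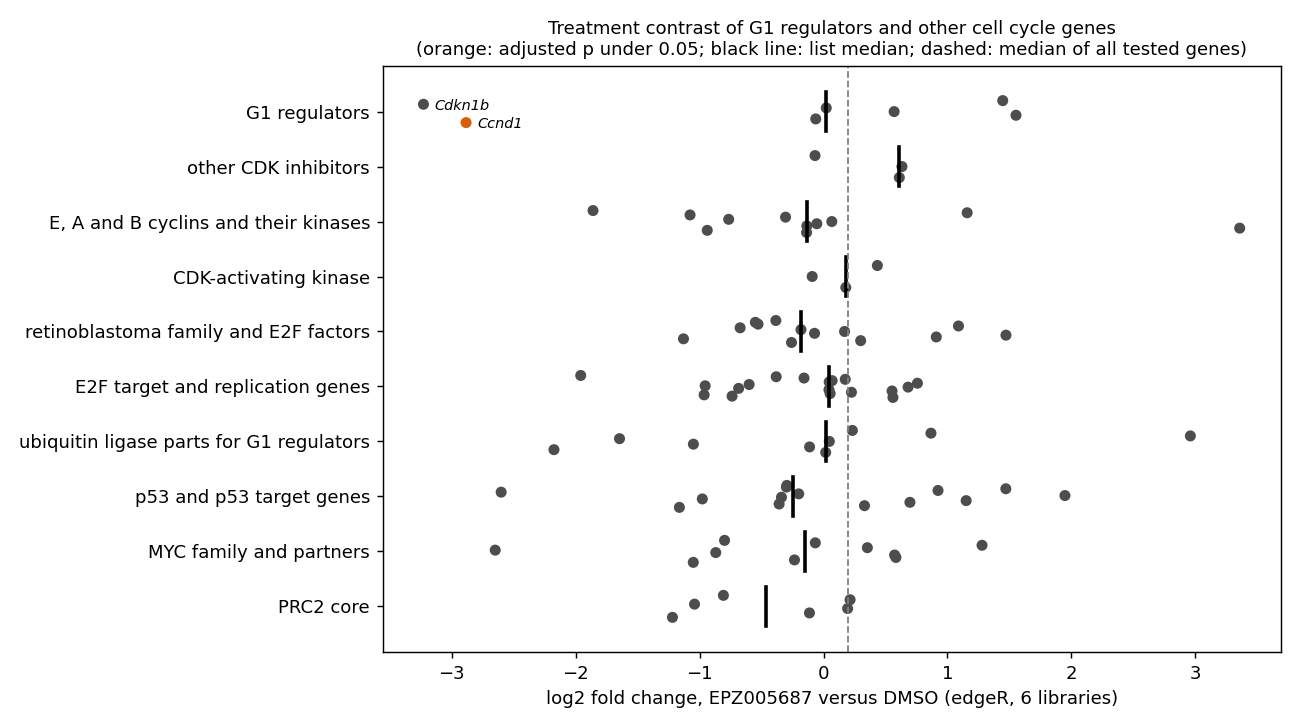
Log2 fold change of EPZ005687 versus DMSO (horizontal axis, edgeR over 6 libraries) for each tested gene, 1 row per list, with list medians as black bars and the median of all tested genes, 0.197, as a dashed line. Ccnd1 is the only point past an edgeR adjusted p of 0.05 (orange), and Cdkn1b lies at −3.23.

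Downstream of the retinoblastoma protein, levels gave no single direction. Cyclin E1 (Ccne1), which takes over from the D-type cyclins late in G1, stood at 33.2 ± 24.3 CPM under DMSO and 43.7 ± 49.7 CPM under EPZ005687 (SD, n = 3, log2 fold change −0.14, adjusted p = 0.979). Its kinase Cdk2 was at 45.1 ± 15.2 and 52.7 ± 27.8 CPM (log2 fold change −0.31, edgeR adjusted p = 0.939). The mitotic kinase Cdk1 was at 195 ± 21.8 and 171 ± 90.2 CPM (log2 fold change −0.77, edgeR adjusted p = 0.785). Ccne2 and Ccna2 were at −0.94 and −0.13 on the log2 scale, with adjusted p of 0.784 and 0.979. The retinoblastoma family genes Rb1, Rbl1 and Rbl2 were at −0.26, 0.30 and −1.13, and the E2F factors E2f1, E2f3 and E2f4 at 0.91, −0.07 and 0.17, none past the threshold. The E2F target with the lowest value was Top2a, a topoisomerase of dividing cells, at 934 ± 245 and 328 ± 109 CPM (log2 fold change −1.96, edgeR adjusted p = 0.137). The summed CPM of the 18 E2F targets was 4130, 3190 and 2070 in A, P and ExE under DMSO. Under EPZ005687 it was 6100, 1990 and 3220, so the arms overlapped in CPM. These sums were not TMM-scaled. The TMM factors of the ExE libraries were 0.7743 under DMSO and 1.245 under EPZ005687, so the order of the ExE sums may depend on the scaling.

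Genes upstream of the members, p53 targets and other CDK inhibitors were also spread on both sides of 0. Trp53, which drives Cdkn1a after DNA damage, was at −1.16 (adjusted p = 0.567), and its targets Mdm2 and Ccng1 were at 0.33 and 0.70 (adjusted p of 0.937 and 0.778). Btg2, an antiproliferative p53 target, was at 571 ± 257 and 168 ± 173 CPM (log2 fold change −2.60, edgeR adjusted p = 0.139). It had the lowest value of the 14 tested p53 genes, of which 8 were negative and 6 positive. The highest was Sesn2 at 1.95 (edgeR adjusted p = 0.794). Skp2, the F-box protein that marks p27 for destruction, was at 64.2 ± 20 and 32.2 ± 36.5 CPM (log2 fold change −2.18, adjusted p = 0.438). Myc and Mycn were at −1.05 and −0.23 (adjusted p of 0.834 and 0.96). Among inhibitors outside the members, Cdkn1c (p57), an imprinted CIP/KIP gene, was at 7.3, 225 and 374 CPM under DMSO and 129, 343 and 167 CPM under EPZ005687 (log2 fold change 0.61, adjusted p = 0.916), and Cdkn2d, an INK4 gene, was at 0.63 (adjusted p = 0.952). Ezh2, whose protein EPZ005687 inhibits, was at 449, 320 and 281 CPM under DMSO and 222, 190 and 181 CPM under EPZ005687 (log2 fold change −1.22, adjusted p = 0.451). Its arms did not overlap in CPM, and 4.89% of all tested genes were likewise lower with no overlap.

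Across the 6 libraries, the level of Ccnd1 was most like that of Rap1gds1, an exchange factor for small GTPases (Pearson's r of 0.989 between log2 levels), of Ppig, a splicing-associated cyclophilin (0.989), and of Nom1, a nucleolar protein (0.986). They were taken as the 3 highest among 6604 genes with a mean of at least 20 CPM, of which 61 passed an r of 0.95. None of the 3 was itself called, and their treatment log2 fold changes were −0.80, −1.50 and −0.56. Among all pairs of tested members, the highest r was 0.80 (Ccnd1 and Cdkn1b) and the lowest −0.84 (Ccnd2 and Cdkn2b). Other pairs came close, such as Cdkn1a and Cdkn2b at 0.791 and Ccnd1 and Cdkn2b at −0.722. These correlations describe 6 libraries that differ in region, depth and arm.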

How the data were processed

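The deposited table holds a whole-number count per gene and library, not normalized, as the values show. CASAVA 1.8, TopHat2 2.0.9, BWA and the build mm10 are named per the submitters' processing notes. The sources used here do not name the counter, the annotation or the strand setting, so reads of overlapping genes may be mixed. Of 23154 entries, 27 that carried dates in place of symbols were left out (0.162% to 0.961% of counts).

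The 13744 genes that reached 10 counts in 2 libraries entered edgeR 4.0.16 (R 4.3.3, TMM scaling, quasi-likelihood test), with terms for region and treatment and 2 residual degrees of freedom. A second fit added a treatment-by-ExE term (1 residual degree of freedom). Benjamini-Hochberg adjusted p-values over all tested genes had a threshold of 0.05. SEs are the log2 fold change over the square root of F. Region ratios used a prior count of 2, with exact conditional binomial 95% intervals and no test. Scripts were tested on simulated data. Alternatives were other scalings, no filter, DESeq2 1.42.0, limma-voom (3.58.1), libraries left out and terms dropped. The members and lists were chosen with earlier results of these data known. All members, fixed partner genes and the lowest or highest value of some lists are named. Top2a, Btg2 and Sesn2 were picked after their values were seen. Promoters and coordinates are RefSeq's, GRCm38.p6, and 8 of 10 members had a promoter window. The motifs sought, on both strands, were the E-box CACGTG, the CRE TGACGTCA, the GC box GGGCGG, the CCAAT box, the TATA box TATAAA, the E2F motifs TTTCGCGC or else TTTGGCGC, the forkhead motif GTAAACA and the p53 half-site.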

Additional observations from a re-analysis of the deposited data

How the results depend on the processing

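The count of members called in the treatment contrast, 1 in the report, was 0 with library totals, 0 with A and P only, 2 with no filter and 2 in DESeq2 (Ccnd1 and Cdkn1b), and 0 to 1 when each library was left out in turn. It was 1 with DESeq2 size factors and limma-voom, and 1 with no region term, where Cdkn1b passed (adjusted p = 0.049) and Ccnd1 did not (0.15). Over all genes, lower calls ran from 83 (A and P only) to 428 (DESeq2), beside 203, and higher calls from 6 to 144 (DESeq2), beside 7. In the other 3 contrasts 0 members were called under every alternative. Library totals moved the median of all genes from 0.197 to 0.613 on the log2 scale.

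Of the fold changes, Ccnd1, Ccnd3, Cdkn1b and Cdkn2b kept their direction with treatment under every alternative run. Ccnd2 turned to 0.36 with library totals and 0.0683 with no region term, and ran from −0.23 to 0.17 with libraries left out. Cdkn1a turned to −0.0156 with no filter, −0.19 in limma-voom and −0.19 with no region term, and ran from −0.73 to 0.67. Cdk4 ran from −0.20 to 1.13. For ExE versus A and P, Ccnd3 ran from −0.74 to 0.56 and Cdkn1b from −0.0019 to 0.59. For P versus A, Ccnd3 ran from −1.36 to 1.30 (0.025 with no filter), Cdkn1a from −0.72 to 1.73, Cdkn1b from −0.36 to 0.77 and Cdk4 from −2.09 to 0.36. For the difference of treatment effects, Ccnd1 was 0.33 with library totals and Ccnd2 −0.0405 with no filter. The Cdkn1a ratio in ExE was 0.28 with library totals. The cause was not tested.

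No paired analysis was possible because the RNA libraries carry no replicate numbers, and the region term already matches the arms. Cyclin shares per transcript length were not run, since no transcript lengths were used here, and the difference of treatment effects could not be fitted with a library left out. Depth limits the low genes: 3 members were untested, and treated Cdkn1b rests on 7 to 17 counts.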
